A study of Mus musculus with 15 samples.

Results

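Peaks of open chromatin at the mouse Zfp genes, the genes whose symbol is Zfp and a number, were described across 15 Omni-ATAC-seq libraries from mouse embryonic fibroblasts (MEFs). A peak was taken where the closest coding gene in RefSeq (GRCm38.p6, the mm10 build) was an autosomal Zfp gene, Zfp423 excepted, and the peak centre lay inside its interval or within 100 kb. This gave 2287 of the 206367 consensus peaks, at 333 of the 359 Zfp genes, and 26 Zfp genes had none. The rule used no measured value.

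Each of the 5 groups held 3 libraries. Early Fra2 and late Fra2 cells carried CRISPRa-VPR-mCherry, a non-cutting Cas9 joined to the VPR transcriptional activator and marked by mCherry. They received lentiviral guides that direct it to Fosl2, which encodes the AP-1 protein Fra2, and were sorted for mCherry and the fibroblast surface protein THY1. The Ezh2 inhibitor group was treated with 4 µM GSK343, which blocks the histone H3 lysine 27 methyltransferase Ezh2, for 3 days, followed by a washout day; the labels do not say whether these cells were transduced or sorted. Early control and late control cells carried the same construct with scrambled guides and were sorted in the same way. All groups are labelled with a C57/B16 background and no other allele. Sample labels give day 3 for early Fra2 and for early control 1 and 2, day 4 for early control 3 and the inhibitor libraries, and day 10 for the late groups, while the series text gives days 4 and 11, so the groups are called early and late. Whether libraries of a group came from separate cultures is not stated, so the p-values reflect variation among libraries that could be technical.

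Most Zfp genes encode C2H2 zinc finger proteins, in which an array of fingers reads a DNA sequence, and many carry a KRAB domain. KRAB domains recruit the corepressor Trim28, which brings the H3 lysine 9 methyltransferase Setdb1 and HP1 proteins, and this pathway keeps retroelements and imprinted regions silent. The genes arose largely by tandem duplication and lie in clusters, and in human cells the bodies of such clusters are known to carry H3 lysine 9 methylation while their promoters stay open. The symbol also covers proteins with other roles, such as Zfp36, which binds AU-rich mRNAs and speeds their decay, Zfp143, an activator that binds promoters, and regulators of fat cell and stem cell fate.

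Reads counted in peaks ran between 6.75 M and 25.3 M (mega) a library, and 3 counts correspond to between 0.117 and 0.420 CPM, the count of a peak per M reads in all peaks. CPM values are scaled by TMM, a trimmed mean of ratios between libraries. Early control 3 was the shallowest library and stood apart: the lowest Pearson correlation between libraries of a group was 0.783 in early control and at least 0.896 in the other groups. Of 10 fibroblast marker genes, 9 had a peak at a gene end (highest peak per gene 3.05 to 17.6 CPM), as had 2 of 4 immune (9.52 to 11.5 CPM), 3 of 4 endothelial (3.23 to 5.87 CPM), 2 of 4 epithelial (2.82 to 3.48 CPM) and 2 of 4 neuronal markers (3.75 to 12.8 CPM). Open chromatin at a marker gene is not its expression.

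The promoter sequences of the family were searched for short elements. RefSeq promoter windows, 250 bases before to 50 after a listed start, were available for 300 of the Zfp genes (361 windows), and 21262 windows covered all genes. The letters ACTACANNTCCC, searched on both strands, are the core of the element bound by Zfp143, and they stood in 53 Zfp windows of 52 genes (14.7%) against 2.54% of all windows. This element was chosen on these same windows, as the word of 6 bases, 2 free bases and 4 bases whose share exceeded that in all windows most, so the excess was fixed by the choice. The AP-1 element TGACTCA stood in 3.32% of Zfp windows against 4.66% of all windows, and the cAMP-response element TGACGTCA, which does not overlap it, in 3.6% against 2.23%. CCAAT stood in 48.2% against 38.2%, and GGGCGG in 43.8% against 46.2%. The median window held 14 CpG dinucleotides and 54.3% GC, against 13 and 56.3% for all windows. A match is a description of letters, and no match says only that these letters are not in the window.

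A few of these windows are shown, all of genes whose promoter peak was called lower in Fra2 cells in at least 1 of the Fra2 comparisons; other than Zfp217 they were chosen after their values were seen. They are RefSeq sequences of build GRCm38.p6, written 5′ to 3′ on the strand of the gene, and capitals mark only matches to the Zfp143 and AP-1 elements. Zfp112 (chr7:24112070-24112369, plus strand) holds 3 matches to ACTACANNTCCC, all on the opposite strand. Zfp879 (chr11:50841503-50841802, minus strand) and Zfp444 (chr7:6172263-6172562, plus strand) hold 1 match each. Zfp217 (chr2:170131171-170131470, minus strand) holds none and has 49 CpG dinucleotides and 79.0% GC. Zfp869 (chr8:69716853-69717152, minus strand) holds 1 match to TGACTCA.
Zfp112: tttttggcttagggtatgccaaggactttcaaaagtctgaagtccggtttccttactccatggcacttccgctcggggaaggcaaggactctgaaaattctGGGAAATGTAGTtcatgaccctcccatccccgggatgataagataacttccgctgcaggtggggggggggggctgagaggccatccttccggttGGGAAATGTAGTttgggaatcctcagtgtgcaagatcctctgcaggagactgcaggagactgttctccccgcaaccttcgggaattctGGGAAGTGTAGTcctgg
Zfp879: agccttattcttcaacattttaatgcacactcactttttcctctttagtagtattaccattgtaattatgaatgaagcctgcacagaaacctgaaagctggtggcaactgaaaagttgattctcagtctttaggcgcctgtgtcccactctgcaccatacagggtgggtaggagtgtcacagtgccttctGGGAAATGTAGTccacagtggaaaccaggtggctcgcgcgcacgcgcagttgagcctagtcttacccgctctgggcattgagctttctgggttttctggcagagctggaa
Zfp444: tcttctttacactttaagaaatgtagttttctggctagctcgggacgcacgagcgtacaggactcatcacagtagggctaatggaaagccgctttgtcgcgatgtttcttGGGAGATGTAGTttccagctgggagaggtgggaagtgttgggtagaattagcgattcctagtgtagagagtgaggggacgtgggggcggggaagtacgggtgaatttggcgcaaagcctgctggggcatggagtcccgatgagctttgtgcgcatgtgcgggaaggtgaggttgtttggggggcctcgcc
Zfp217: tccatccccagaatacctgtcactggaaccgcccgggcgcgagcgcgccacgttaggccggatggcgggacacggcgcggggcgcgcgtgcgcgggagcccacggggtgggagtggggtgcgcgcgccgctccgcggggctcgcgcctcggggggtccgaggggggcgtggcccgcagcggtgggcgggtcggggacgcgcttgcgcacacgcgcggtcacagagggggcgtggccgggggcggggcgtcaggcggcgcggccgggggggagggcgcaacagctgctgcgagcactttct
Zfp869: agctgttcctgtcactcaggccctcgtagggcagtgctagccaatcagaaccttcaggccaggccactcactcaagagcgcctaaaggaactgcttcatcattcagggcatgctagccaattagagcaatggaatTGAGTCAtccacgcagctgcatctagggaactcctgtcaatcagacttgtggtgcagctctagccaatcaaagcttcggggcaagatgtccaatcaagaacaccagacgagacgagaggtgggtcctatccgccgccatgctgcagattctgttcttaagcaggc

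Peaks at Zfp genes lay more often at gene ends than peaks in general. Of the 2287, 499 (21.8%) had their centre within 1 kb of either end of an annotated protein-coding gene, against 13% of all peaks, 989 (43.2%) lay in the body of a gene and 799 (34.9%) outside genes. The mean level over the libraries had a median of 3.73 CPM, against 3.27 CPM for all peaks, and ran from 0.605 to 69.2 CPM. At gene ends the medians were 7.95 CPM at Zfp genes and 6.03 CPM over all peaks. Genes had a median of 4 peaks, 40 genes had 1, and 53 genes had 10 or more. Chromosome 7 held the most, with 407 peaks at 88 genes, followed by chromosome 18 with 323 peaks at 11 genes. All 2287 were among the 206349 peaks that passed the filter on low counts.

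Early after Fra2 activation, 155 peaks at Zfp genes were higher (6.78%, against 10.1% of all tested peaks) and 133 were lower (5.82%, against 4.92%), at an adjusted p under 0.05 by edgeR's quasi-likelihood test with Benjamini-Hochberg adjustment over all peaks. Late, 94 were higher (4.11%, against 6.44%) and 113 lower (4.94%, against 3.54%). Higher calls lay mostly in gene bodies and outside genes, and gene ends held more lower than higher calls: at the 499 gene-end peaks, 6 were higher and 42 lower early (1.20% and 8.42%, against 2.18% and 7.87% of all gene-end peaks), and 5 were higher and 40 lower late (1.0% and 8.02%, against 1.25% and 8.99%). In gene bodies 82 were higher and 53 lower early (8.29% and 5.36%, against 10.0% and 4.99% of all gene-body peaks), and outside genes 67 were higher and 38 lower (8.39% and 4.76%, against 12.7% and 3.87%).

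Set beside peaks of the same place, gene-end shares at Zfp genes were thus near the shares over all gene-end peaks, and the shares of higher peaks outside genes were below theirs. The median log2 fold change of the Zfp peaks was −0.12 early and −0.09 late, against −0.03 and −0.01 over all peaks, and at gene ends −0.20 and −0.22, against −0.22 and −0.23. This direction depends on the scaling. With scaling factors taken from gene-end peaks, the median over all peaks moved to 0.17 early and 0.22 late, the Zfp calls became 310 higher and 38 lower early and 261 higher and 38 lower late, and those at Zfp gene ends 18 higher and 13 lower early and 19 higher and 17 lower late. Higher calls made up 53.8% of the early Zfp calls under the first scaling and 89.1% under the second, and 45.4% and 87.3% of the late calls. Cyclic loess scaling gave 180 higher and 218 lower early. Lower calls at Zfp gene ends were 124 early and 111 late without early control 3, between 18 and 24 early without early control 1 or 2 or early Fra2 2 or 3, and between 10 and 19 late without late control 2 or 3 or any late Fra2 library.

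**Figure D1:**
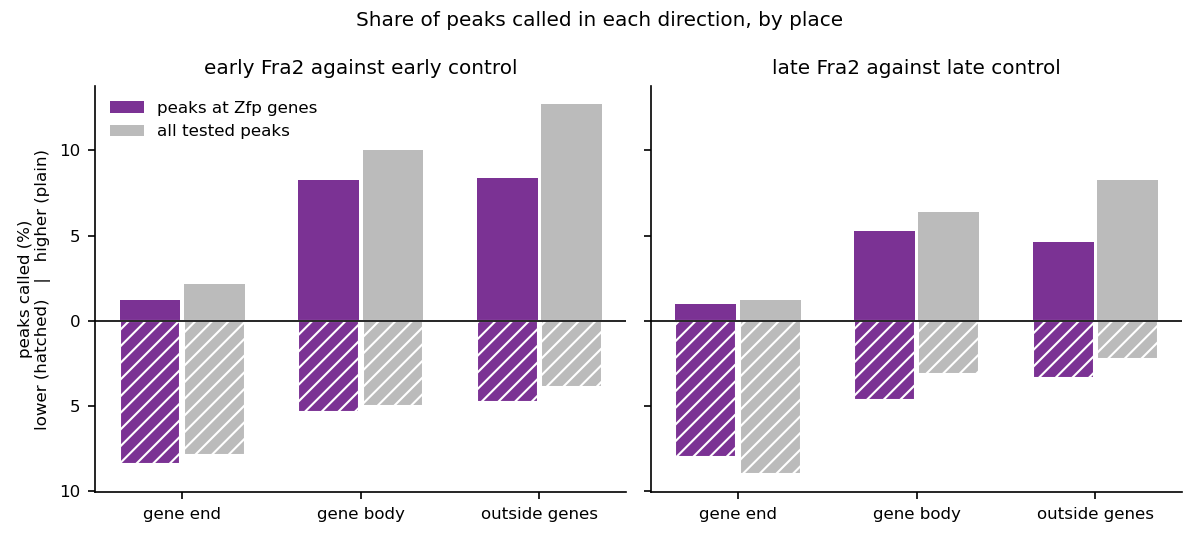
Share of tested peaks called higher (plain bars, above 0) or lower (hatched bars, below 0) at Zfp genes and over all peaks, by place, for early Fra2 against early control (left) and late Fra2 against late control (right). At gene ends lower calls outnumber higher ones at Zfp genes (42 against 6 early) under TMM scaling over all peaks, and this split turns to 18 higher and 13 lower with factors from gene-end peaks.

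At the level of genes, 89 of the 333 had a higher peak and 92 a lower one early, 41 of them both, and 193 had neither. Late, 67 had a higher and 80 a lower peak, 20 both, and 206 neither. The early and late comparisons use separate controls. Of the peaks called higher, 41 were shared, which is 26.5% of the early and 43.6% of the late calls, and of those called lower 24 were shared (18.0% and 21.2%). Matching shares over all peaks or all genes are not given, so these counts do not set Zfp genes apart. A single peak was called in opposite directions, the Zfp469 peak described below. Leaving out early control 3 changed the calls: early, 187 were higher and 255 lower, of which 139 and 109 were also called with it, and late, whose groups do not hold that library, 140 were higher and 250 lower through the shared estimate of the spread, with all 94 and 113 kept. Without early control 2, 103 were higher and 77 lower early, and without late control 3, 39 were higher and 36 lower late.

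**Figure D2:**
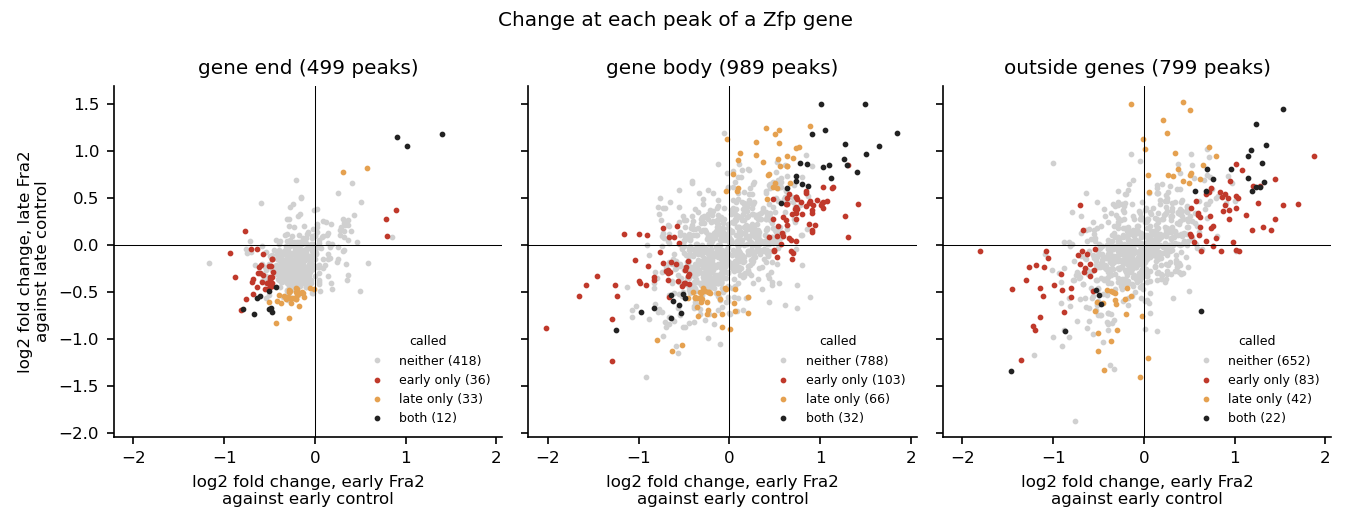
Log2 fold change of each Zfp peak in early Fra2 against early control (horizontal axis) and in late Fra2 against late control (vertical axis), by place, coloured by the comparisons in which it was called. Points called in both lie to the upper right and lower left, apart from the Zfp469 peak outside genes, at 0.63 early and −0.70 late.

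At the transcription starts themselves nearly every called peak was lower. A peak overlapped a RefSeq window of its own gene in 262 cases (246 genes), with a median of 11.6 CPM. Early, 0 were higher and 34 lower (13%, against 0.899% higher and 9.92% lower among the 11563 peaks at any window), and late, 1 was higher and 32 lower (0.382% and 12.2%, against 0.553% and 13.7%). The median log2 fold change was −0.23 early and −0.29 late, against −0.25 and −0.29 over all window peaks, close to each other in both comparisons. Under factors from gene-end peaks the counts were 1 higher and 10 lower early and 3 higher and 14 lower late, and without early control 3, 97 were lower early and 83 late. The late riser was Zfp583, with a log2 fold change of 0.57 ± 0.19 (SE), chosen after its values were seen.

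The median over the 262 window peaks was 11.9, 10.8 and 9.90 CPM in early Fra2 libraries, against 14.3, 13.6 and 10.4 CPM in early control. It was 10.1, 9.76 and 9.70 CPM in late Fra2 libraries, against 10.9, 12.4 and 13 CPM in late control. Early control 3 thus lay inside the range of early Fra2, and the late groups did not overlap. In Ezh2 inhibitor libraries it was 12.1, 11.6 and 11.7 CPM. Windows with ACTACANNTCCC held 52 of these peaks, of which 5 were lower early and 4 late, and the 210 others held 29 and 28 lower peaks. The median log2 fold changes with and without the element were −0.22 and −0.23 early and −0.29 and −0.28 late.

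**Figure D3:**
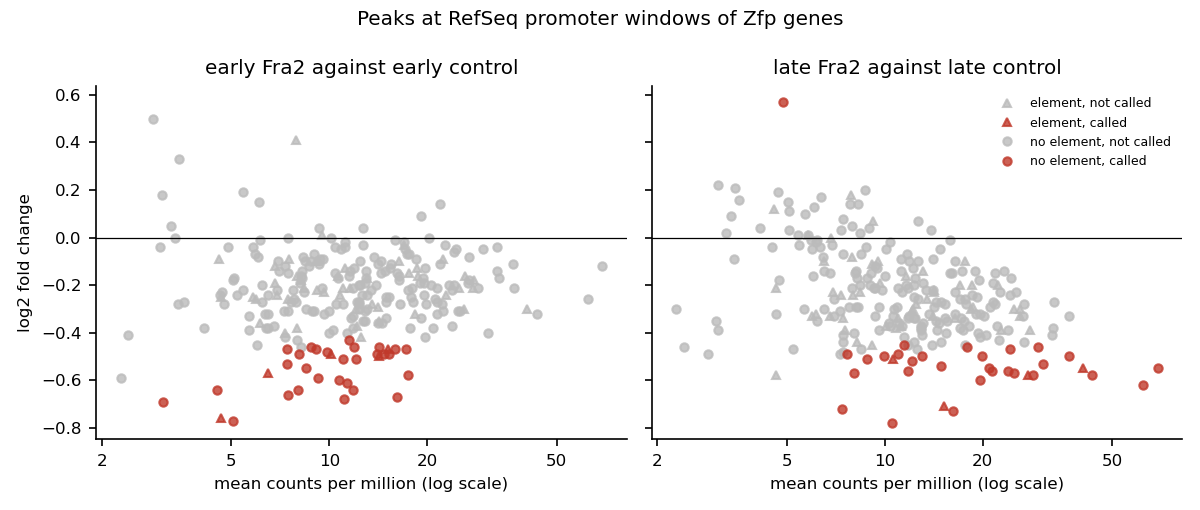
Log2 fold change against mean level (log scale) for the 262 peaks at RefSeq promoter windows of Zfp genes, early (left) and late (right), with triangles for windows that hold the Zfp143 element, circles for those that do not, and red for called peaks. Most points lie below 0 under TMM scaling over all peaks (34 called lower early, against 10 with factors from gene-end peaks), and triangles and circles lie in the same range.

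The Zfp112 promoter, with 3 copies of the element, was at 15.9, 13.4 and 12.5 CPM in early Fra2, against 23.1, 20.2 and 13.9 CPM in early control. Late it was at 9.80, 9.76 and 9.95 CPM in Fra2 libraries, against 14.2, 16.3 and 17.5 CPM in control. The late groups lie far apart, while early Fra2 1 lies above early control 3. Its log2 fold changes were −0.47 ± 0.16 (SE, adjusted p = 0.0339) early and −0.71 ± 0.16 (adjusted p = 0.00267) late, and the early one was not called with factors from gene-end peaks (−0.28). Zfp879 was at 2.94, 3.04 and 4.54 CPM in early Fra2, against 4.78, 5.59 and 8.12 CPM in early control, with no overlap, and changed by −0.76 ± 0.21 (adjusted p = 0.00938; −0.57 and not called with factors from gene-end peaks). Zfp444 changed by −0.55 late, where Fra2 libraries had 30.9, 32.3 and 33.6 CPM and late control 40.8, 51.8 and 49.0 CPM. Zfp869, whose window holds the AP-1 element, fell by 0.62 on the log2 scale late, with 50.2, 45.9 and 49.2 CPM in Fra2 libraries, against 62.1, 84.8 and 76.8 CPM in late control. The groups do not overlap at either gene, but under cyclic loess the 2 changes were −0.11 and −0.09 and neither was called.

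Gene ends are not all starts. Of the 499 gene-end peaks, 222 overlapped a window of their own gene, with 0 higher and 28 lower early, and 277 did not, with 6 higher and 14 lower. The 8 gene-end peaks called higher in either Fra2 comparison all lay over 1 kb from the nearest listed start of their own gene, from 1.14 kb (Zfp760) to 37.8 kb (Zfp398). This was looked at after their values were seen. The end can be that of another gene, as at Zfp687, whose peak lay 9.15 kb from the nearest end of Zfp687. Distances to the starts of other genes are not given, so these peaks may lie at such starts. At Zfp213 (chr17:23556384-23556885, 7.59 kb from the start) early Fra2 libraries had 3.61, 6.32 and 3.68 CPM, against 1.34, 1.67 and 2.38 CPM in early control, and late Fra2 libraries had 5.27, 5.23 and 4.79 CPM, against 2.47, 2.47 and 1.83 CPM in late control. Every Fra2 library is above every control library of its time. The log2 fold changes were 1.40 ± 0.27 (adjusted p = 0.000124) and 1.18 ± 0.24 (adjusted p = 0.000679). The peaks at Zfp229 (1.01 and 1.05) and Zfp541 (0.91 and 1.15) were also higher at both times. Those at Zfp39, Zfp760 and Zfp961 were called early and not late, and those at Zfp687 and Zfp398 late and not early, and none of these differences between times was called by its own test.

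The gene of Zfp143 carried both patterns. A peak in its body (chr7:110078070-110078571, 16.6 kb from the start) had 8.83, 7.19 and 9.37 CPM in early Fra2, against 2.95, 2.10 and 4.62 CPM in early control. Late it had 8.0, 8.11 and 7.31 CPM in Fra2 libraries, against 2.84, 3.02 and 2.44 CPM in control. Fra2 libraries lie well above their controls at both times, with log2 fold changes of 1.49 ± 0.20 (adjusted p = 1.91e-07) and 1.5 ± 0.20 (adjusted p = 4.7e-07), and the Ezh2 inhibitor libraries (3.38, 2.95 and 2.33 CPM) lie within the early control range. Its highest gene-end peak (chr7:110061321-110061822), at the start, had 42.3, 36.1 and 37.0 CPM in early Fra2, against 55.1, 50.7 and 37.4 CPM in early control, and the groups overlap. Late it had 36.5, 33.2 and 37.5 CPM in Fra2 libraries, against 44.4, 61.1 and 54.5 CPM in control, with no overlap. Its log2 fold changes were −0.32 ± 0.16 (adjusted p = 0.161) and −0.58 ± 0.16 (adjusted p = 0.0115), the late one −0.12 and not called under cyclic loess.

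**Figure D4:**
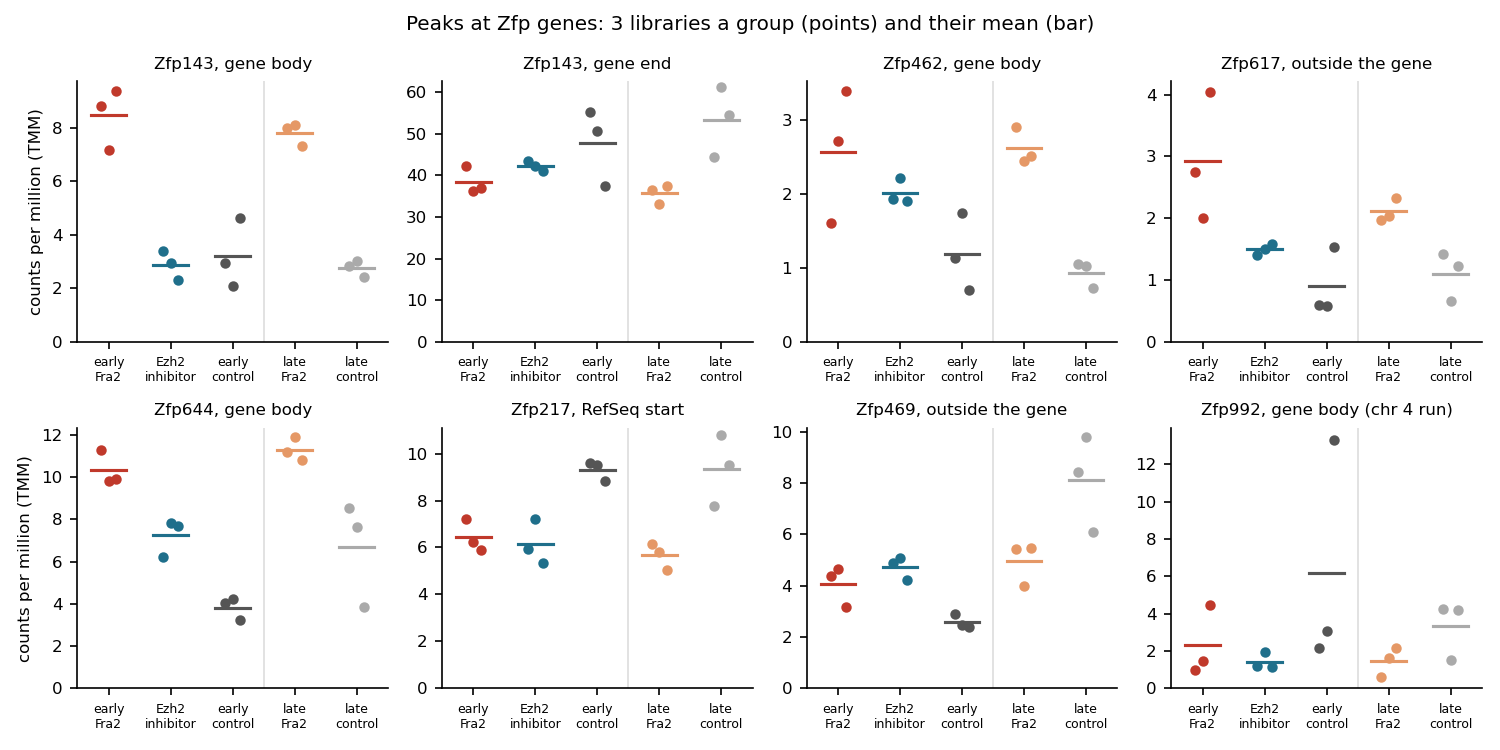
TMM-scaled CPM at 8 peaks of Zfp genes, with 1 point a library and a bar at the mean of 3, groups in the order early Fra2, Ezh2 inhibitor, early control, late Fra2 and late control. The Zfp143 body peak stands at 7.19 to 9.37 in the 6 Fra2 libraries and at 4.62 or less in the other 9, and the Zfp992 peak of the chromosome 4 run reaches 13.3 in early control 3.

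The largest early rise among Zfp peaks with at least 1 CPM and no overlap was at a peak 3.61 kb from Zfp617 (chr8:71937994-71938495), with 2.75, 2.0 and 4.04 CPM in early Fra2, against 0.590, 0.580 and 1.54 CPM in early control, and a log2 fold change of 1.87 ± 0.40 (adjusted p = 0.000546). The peak in the body of Zfp14 was among the strongest risers by level, at 11.6, 9.27 and 10.5 CPM in early Fra2, against 3.33, 2.76 and 4.34 CPM in early control, and at 11.5, 12.4 and 12 CPM in late Fra2, against 6.35, 6.27 and 4.75 CPM in late control. Both groups of Fra2 libraries lie above their controls there, with changes of 1.65 and 1.05. The other early rises of that rank ran from 1.49 (the Zfp143 body peak) to 1.85 (Zfp459), with Zfp42, Zfp827, Zfp318 and Zfp551 between them. The peak at Zfp42, a gene known as a marker of pluripotent cells, lay 30.2 kb outside the gene and rose by 1.70 ± 0.38 (adjusted p = 0.00104) early, against 0.43 late (adjusted p = 0.462). The late minus early difference was −1.27 ± 0.52 and was not called by its own test (adjusted p = 0.398).

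Late, the largest rises ran from 1.26 (Zfp93) to 1.52 (Zfp626), with Zfp51, Zfp143, Zfp462, Zfp827, Zfp622 and Zfp637 between them. Zfp462, a regulator of heterochromatin and pluripotency in mouse embryonic stem cells, had 2.91, 2.45 and 2.52 CPM in late Fra2 at a body peak (chr4:54989485-54989986), against 1.05, 1.03 and 0.731 CPM in late control. Its change was 1.5 ± 0.35 (adjusted p = 0.003), and the groups could not overlap because the list took only such peaks. All called peaks of Zfp462, 6 early and 5 late of its 48, were higher, by 0.69 to 1.26 early and 0.76 to 1.5 late. Over all tested peaks 10.1% were higher and 4.92% lower early, and 6.44% and 3.54% late. Whether this gene differs from those shares was not tested. Zfp827, which binds telomeres with the NuRD complex in human cells, had a peak 36.6 kb from the gene with 8.59, 7.59 and 6.49 CPM in early Fra2, against 3.33, 1.23 and 3.5 CPM in early control, and it was higher at both times (1.53 and 1.44). Of the 8 late peaks, 3 were also called higher early, at Zfp143, Zfp462 and Zfp827.

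The largest early falls, by 1.25 (Zfp13) to 2.02 (Zfp619) on the log2 scale, lay in gene bodies or outside genes. The Zfp619 peak (chr7:39531727-39532228) had 0.712, 1.04 and 0.576 CPM in early Fra2, against 3.38, 2.54 and 3.5 CPM in early control, with an adjusted p of 2.6e-05. Groups without overlap were a condition of this list. Late it had 0.728, 1.01 and 0.737 CPM in Fra2 libraries, against 2.02, 1.51 and 1.10 CPM in control, a change of −0.88 that was not called (adjusted p = 0.0956). The difference between times was not called either (adjusted p = 0.45). At Zfp82, Zfp609 and Zfp710 the early changes were −1.80, −1.66 and −1.58. Those at Zfp536 (−1.46, adjusted p = 0.011) and Zfp583 (−1.45, adjusted p = 0.0196) were not called without early control 3, which held the highest early control value at both (−0.98, adjusted p = 0.083, and −1.0, adjusted p = 0.107).

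The largest late falls ran from 1.01 (Zfp236) to 1.41 (Zfp516) on the log2 scale. Zfp395 had 1.11, 2.13 and 2.33 CPM in late Fra2 at a body peak (chr14:65376562-65377063), against 3.66, 4.22 and 4.02 CPM in late control, and changed by −1.13 ± 0.26 (adjusted p = 0.00286). The Zfp516 peak changed by −1.41 ± 0.42 (adjusted p = 0.0222), with 0.685, 0.907 and 0.860 CPM in late Fra2, against 2.47, 1.51 and 2.56 CPM in late control. Both peaks were listed under the rule that the groups do not overlap. With factors from gene-end peaks, those at Zfp516, Zfp982, Zfp978, Zfp648 and Zfp236 were no longer called. The peaks at Zfp982 and Zfp978 lie in the chromosome 4 run described below, whose sums moved with depth, and they were not called in 9 and 11 of 21 alternatives.

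Genes of known roles were grouped, and each group is described by the gene-end peak of highest level per gene and by all of its peaks. The shares of each group stand beside those of all tested peaks, which were 10.1% higher and 4.92% lower early and 6.44% and 3.54% late, with median log2 fold changes of −0.03 and −0.01. Among the 5 genes of RNA decay and RNA binding, 3 of 50 peaks were higher and 9 lower early (6% and 18%), and 0 and 3 late (6% lower), with medians of −0.18 and −0.04. Of the 9 lower peaks early, 6 belonged to Zfp36. The gene-end peak of Zfp36 had 15.1, 12.5 and 11.3 CPM in early Fra2, against 22.3, 19.0 and 12.5 CPM in early control, and changed by −0.49 ± 0.16 (adjusted p = 0.0322), with an overlap at early control 3; it was −0.30 and not called with factors from gene-end peaks. That of Zfp638, an RNA-binding protein that also acts in fat cell differentiation, had 7.83, 7.75 and 8.86 CPM in early Fra2, against 12.7, 12 and 12 CPM in early control, and 9.37, 9.55 and 7.74 CPM in late Fra2, against 13.8, 13 and 12.2 CPM in late control. Zfp638 changed by −0.60 ± 0.16 (adjusted p = 0.00557) and −0.54 ± 0.15 (adjusted p = 0.0123), with no overlap at either time; the late change was −0.32 and not called with factors from gene-end peaks. The highest gene-end peaks of Zfp106, Zfp326 and Zfp346 were not called, with early changes between −0.36 and −0.04, while of all 20 peaks of Zfp326 3 were higher and 1 lower early.

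The next group holds 7 genes that silence imprinted regions or retroelements. Zfp57 and Zfp445 protect imprints, Zfp568 represses a placental transcript of Igf2, and Zfp809 silences retroviral DNA. Of their 38 peaks 1 was higher and 3 lower early (2.63% and 7.89%), and 1 was higher and 0 lower late (2.63% higher), with medians of −0.16 and −0.08. At the highest gene-end peak of the 5 that have one, the adjusted p was 0.166 or more in the 4 comparisons between groups. The peak of Zfp809 had 15.5, 16.3 and 15.7 CPM in early Fra2, against 21.4, 18.9 and 15.5 CPM in early control, and that of Zfp568 24.5, 23.3 and 19.6 CPM, against 30.5, 27.5 and 23.8 CPM. Both sets overlap, with changes of −0.25 (adjusted p = 0.261) and −0.29 (adjusted p = 0.204), and a p that misses the threshold does not show that the groups did not differ. Zfp57 and Zfp708 had peaks but none at an end of the gene.

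The 5 genes of fat cell and mesenchymal fate held 227 peaks, because 3 of them were among the genes with the most peaks: Zfp516, which promotes the brown fat programme, had 75, Zfp469, mutated in human brittle cornea syndrome as ZNF469, had 67, and Zfp521, an inhibitor of fat cell differentiation, had 52. Early, 13 were higher and 16 lower (5.73% and 7.05%), and late 9 and 20 (3.96% and 8.81%), with medians of −0.08 and −0.14. Zfp521 had 6 higher and 1 lower early and 5 and 1 late, and Zfp516 had 3 and 9 at each time; the difference between these genes was not tested. The highest gene-end peak of Zfp521 had 14, 15.3 and 13.8 CPM in early Fra2, against 14.7, 14.2 and 15.1 CPM in early control, and changed by −0.03 (adjusted p = 0.92). That of Zfp469 had 7.93, 7.67 and 7.35 CPM, against 11.4, 12.9 and 11.2 CPM, without overlap, and changed by −0.63 ± 0.16 (adjusted p = 0.00365). The highest gene-end peak of Zfp467 was not called, and 1 of its 4 peaks was lower late.

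Zfp217, which promotes fat cell differentiation, was lower in all of early Fra2, late Fra2 and Ezh2 inhibitor cells at the peak on the CpG-rich start shown above (chr2:170130867-170131368). It had 7.22, 6.24 and 5.91 CPM in early Fra2 and 5.93, 7.22 and 5.32 CPM in Ezh2 inhibitor libraries, against 9.61, 9.51 and 8.82 CPM in early control. Late Fra2 libraries had 6.16, 5.81 and 5.03 CPM, against 7.77, 10.8 and 9.50 CPM in late control. No library of these groups reaches its control. The changes were −0.53 (adjusted p = 0.0239), −0.61 (adjusted p = 0.0454) and −0.72 (adjusted p = 0.00216), and with factors from gene-end peaks the first and second were −0.32 and −0.47 and not called. In that order, these changes were not called in 6, 12 and 0 of 21 alternatives. The first and second share early control. The others called in 1 direction in all of these were a Zfp516 body peak (chr18:82913982-82914483; −0.56 early, −0.64 late and −0.60 with the inhibitor, not called in 4, 3 and 13 of 21 alternatives), a Zfp982 peak of the chromosome 4 run described below, and, higher, a Zfp644 body peak.

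The Zfp644 peak (chr5:106679698-106680199) had 11.3, 9.83 and 9.94 CPM in early Fra2 and 6.24, 7.85 and 7.69 CPM in Ezh2 inhibitor libraries, against 4.02, 4.21 and 3.22 CPM in early control. Late Fra2 libraries had 11.2, 11.9 and 10.8 CPM, against 8.52, 7.66 and 3.84 CPM in late control. The treated libraries lie above their controls in each case. The log2 fold changes were 1.41 ± 0.20 early (adjusted p = 2.71e-07), 0.77 ± 0.17 late (adjusted p = 0.00208) and 0.89 ± 0.20 with the inhibitor (adjusted p = 0.0149).

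Among the pluripotency genes Zfp42, Zfp281, Zfp462 and Zfp706, 9 of 84 peaks were higher and 1 lower early (10.7% and 1.19%), and 5 and 2 late (5.95% and 2.38%), with medians of 0.06 and 0.02, so that the shares of higher peaks were near those of all peaks. The gene-end peak of Zfp281 had 11.5, 10.4 and 10.0 CPM in early Fra2, against 14.2, 16.5 and 12 CPM in early control, and changed by −0.43 (adjusted p = 0.0468) and late by −0.45 (adjusted p = 0.0461). Neither change was called with factors from gene-end peaks, and the early and late changes were not called in 16 and 12 of 21 alternatives. The developmental corepressors Zfp503 and Zfp703 had 0 higher and 3 lower of 39 peaks early (7.69% lower) and 0 and 1 late (2.56% lower), and their highest gene-end peaks were not called. The neural and epidermal genes Zfp536, Zfp750, Zfp335 and Zfp365 had 5 higher and 6 lower of 74 peaks early (6.76% and 8.11%) and 2 and 1 late (2.7% and 1.35%). At the gene end of Zfp365, early Fra2 libraries had 7.93, 10.4 and 9.94 CPM, against 14.7, 15.8 and 11.1 CPM in early control, a change of −0.60 ± 0.16 (adjusted p = 0.0076) without overlap; it was not called without early control 2 (−0.50), without early Fra2 1 (−0.47) or when only these groups were fitted (−0.59).

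The last group took in Zfp143, the transcription factors Zfp148 and Zfp384, the kinetochore protein Zfp207, the ubiquitin ligase Zfp91 and the SUMO factor Zfp451, with 10 of 56 peaks higher and 3 lower early (17.9% and 5.36%), and 4 and 5 late (7.14% and 8.93%), and medians of −0.05 and 0.02. Zfp830 had no peak. Gene-end peaks were lower late at Zfp384 (−0.46, adjusted p = 0.0455), Zfp207 (−0.49, adjusted p = 0.0488) and Zfp91 (−0.56, adjusted p = 0.0123), and Zfp207 was also lower early (−0.51, adjusted p = 0.0333; not called in 6 of 21 alternatives, with a highest adjusted p of 0.202). The Zfp91 peak had 19.8, 17.6 and 20.7 CPM in late Fra2, against 22.5, 30.3 and 32.8 CPM in late control. None of the late Fra2 libraries reaches a control, but under cyclic loess the late changes of Zfp384, Zfp207 and Zfp91 were −0.21, −0.35 and −0.25, and none was called. In that order, these late changes were not called in 14, 13 and 4 of 21 alternatives.

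After Ezh2 inhibition few peaks at Zfp genes were called: 3 were higher (0.552% of all tested peaks were) and 13 lower (0.341% of all), at 3 and 8 genes. At gene ends 0 of 499 were higher and 0 lower by edgeR's test, against 0.146% and 0.569% of all gene-end peaks, and DESeq2 called 2 lower. An unadjusted p under 0.05 by edgeR's test was found at 341 of the 2287, and at 30246 of all 206349 tested peaks. The higher peaks were at Zfp800, Zfp644 and Zfp469. The Zfp800 body peak (chr6:28252748-28253249) had 3.87, 2.91 and 4.16 CPM in inhibitor libraries, against 1.72, 1.31 and 2.24 CPM in early control, with a change of 1.11 ± 0.26 (adjusted p = 0.0261). Of the 13 lower peaks, 9 belonged to the chromosome 4 run, and without early control 3 there were 24 higher and 67 lower, with 3 and 4 in common. With factors from gene-end peaks 65 were higher and 13 lower, so that higher calls made up 83.3% in place of 18.8%. Fitting only these 2 groups called 0 peaks. The inhibitor libraries carry sheet numbers apart from the others (27 to 29 against 1 to 12), and treatment and library set cannot be told apart.

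In the controls alone, 41 peaks at Zfp genes were higher in late than in early control (2.04% of all tested peaks were) and 17 lower (1.23% of all), with 0 higher and 4 lower at gene ends (0.527% and 0.83% of all gene-end peaks). Higher calls made up 70.7%, against 82.7% with factors from gene-end peaks and 42.4% under cyclic loess. The largest rises, from 0.92 (Zfp7) to 1.62 (Zfp469), included a Zfp799 peak (chr17:32835580-32836081) with 5.23, 6.82 and 6.34 CPM in late control, against 3.11, 2.54 and 2.94 CPM in early control, and a change of 1.10 ± 0.22 (adjusted p = 0.00144). The gene-end peak of Zfp872 (chr9:22188114-22188615) was lower, with 3.59, 3.26 and 4.39 CPM in late control, against 7.19, 8.27 and 6.58 CPM in early control, and a change of −0.98 ± 0.19 (adjusted p = 0.00124). Neither pair overlaps. Without early control 3 the falls at Zfp14, Zfp78, Zfp41 and Zfp445 were no longer called.

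Of the 67 peaks near Zfp469, 7 were higher in late than in early control, by 0.59 to 1.62, and 0 lower, and 8 were lower and 1 higher in late Fra2 than in late control. Over all tested peaks 2.04% were higher and 1.23% lower in the first comparison, and 3.54% lower and 6.44% higher in the second. Whether this gene differs from those shares was not tested. These comparisons share late control. At one peak 3.82 kb from the gene (chr8:122276222-122276723) late Fra2 libraries had 5.44, 4.00 and 5.46 CPM, against 8.44, 9.77 and 6.09 CPM in late control. Early Fra2 libraries had 4.37, 4.64 and 3.17 CPM and Ezh2 inhibitor libraries 4.88, 5.08 and 4.23 CPM, against 2.90, 2.47 and 2.38 CPM in early control. Every early Fra2 library lies above early control, and every late Fra2 library below late control. The late effect minus the early effect was −1.33 ± 0.29 (adjusted p = 0.0317), the only Zfp peak called in that comparison (0 higher and 1 lower, against 0.0116% and 0.0819% of all tested peaks); at Zfp gene ends 0 were called, against 0.0112% higher and 0.0112% lower of all gene-end peaks.

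The Zfp genes were sorted by whether other Zfp genes lay within 500 kb. Runs of 5 or more neighbours (16 runs, 168 genes, 158 with peaks) held 626 peaks, 3.96 a gene, of which 36.4% were at gene ends, and early calls were 4.95% higher and 7.67% lower. The 108 genes alone with peaks held 1317 peaks, 12.2 a gene, 13.7% of them at gene ends, with 8.20% higher and 4.71% lower. Late the shares were 4.31% higher and 5.59% lower in runs of 5 or more and 4.33% and 4.33% at genes alone, against 6.44% and 3.54% of all tested peaks. Gene-end peaks thus made up more of the peaks in runs of 5 or more than of those at genes alone.

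One run stood apart. The run from Zfp990 to Zfp933 (chr4:145510759-147849126, 16 genes, 9 with a peak, 68 peaks) had a summed level of 105, 184 and 284 CPM in early Fra2 and 148, 171 and 137 CPM in Ezh2 inhibitor libraries, against 136, 218 and 528 CPM in early control. It had 92.5, 133 and 143 CPM in late Fra2, against 234, 120 and 151 CPM in late control. The highest library was 5.71 times the lowest, against 1.25 to 1.49 times in the other 15 runs. The spread lay in the 63 peaks away from gene ends (76.0 to 496 CPM), and the 5 gene-end peaks summed to between 15 and 32.0 CPM.

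The sums in this run moved with depth: the 5 libraries with the fewest reads in peaks held the 5 highest sums, and the counts themselves stayed between 1988 and 3945 reads. Early control 3 was the highest library and above 2 times the median of the others at 56 of the 68 peaks (82.4%), against 4.82% of the other Zfp peaks and 5.84% of all peaks. At the Zfp992 peak (chr4:146455275-146455776) inhibitor libraries had 1.19, 1.95 and 1.13 CPM, against 2.15, 3.05 and 13.3 CPM in early control, and the change of −1.95 (adjusted p = 0.0118) was −0.86 without early control 3 (adjusted p = 0.172). At Zfp600 the change of −2.01 (adjusted p = 0.0248) was −0.73 (adjusted p = 0.37). The run held 8 of the 133 early lower calls and 9 of the 13 with the inhibitor, and 0 and 0 of these without that library. How reads that map to several places were treated is not given in the sources used here, and its part in these values was not tested.

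**Figure D5:**
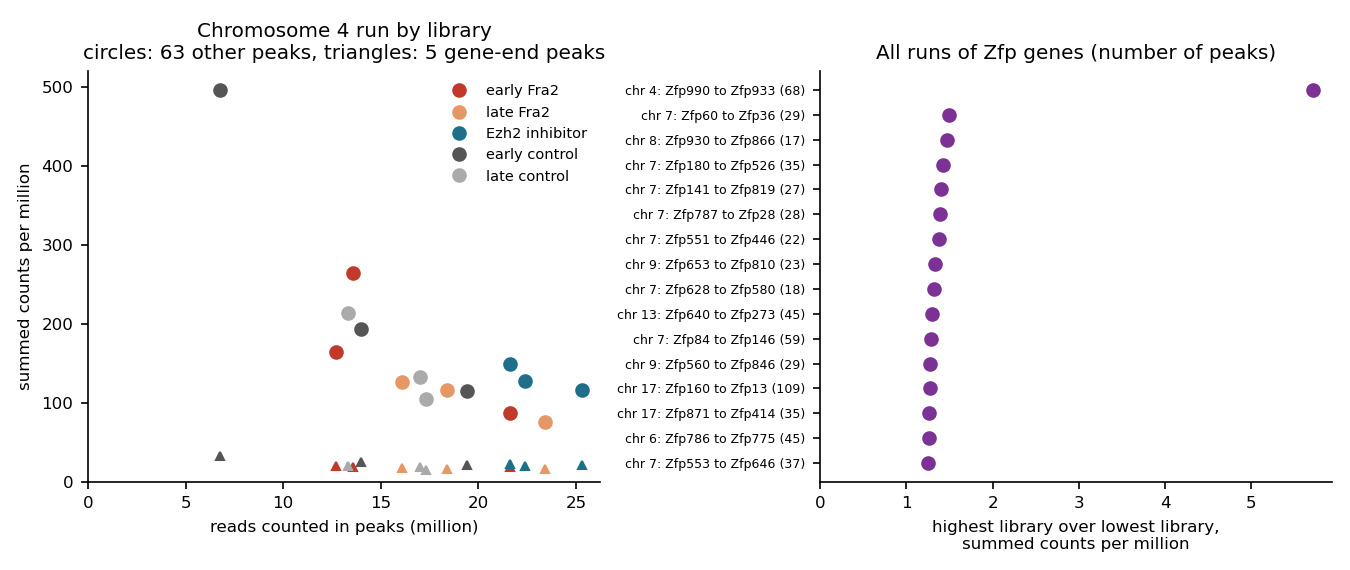
Left, summed TMM-scaled CPM over the chromosome 4 run in each library against its reads in peaks, with circles for the 63 peaks away from gene ends and triangles for the 5 gene-end peaks; right, the ratio of the highest to the lowest library for each of the 16 runs. Circles are highest in the shallowest libraries, up to 496 in early control 3, and the run stands at 5.71 on the right, against 1.25 to 1.49 for the others.

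The 16 corepressor genes that act with KRAB zinc finger proteins held 121 peaks, of which 7 were higher and 6 lower early (5.79% and 4.96%), 5 and 6 late (4.13% and 4.96%), and 0 and 1 with the inhibitor (0.826% lower). The early share of higher peaks was below that of all peaks (10.1%), and 4.92% of all peaks were lower early. Late, 6.44% of all peaks were higher and 3.54% lower, and 0.341% were lower with the inhibitor. The 4 peaks of Trim28 had a median log2 fold change of −0.27 early and −0.23 late. Gene-end peaks were lower late at the HP1 genes Cbx3 (−0.78, adjusted p = 0.000549) and Cbx5 (−0.73, adjusted p = 0.00182), at Uhrf1, which guides the maintenance DNA methyltransferase (−0.78, adjusted p = 0.000714), and at the histone chaperone gene Daxx (−0.47, adjusted p = 0.0429). Of all gene-end peaks 8.99% were lower late. The number of gene-end peaks at the corepressor genes is not given, so these falls do not set the genes apart. Late rises lay in the bodies of Tasor (1.32, adjusted p = 0.0074) and Pphln1 (0.99, adjusted p = 0.00532), which encode parts of the HUSH silencing complex, and at 1 peak of Morc2a and 2 of Morc3 (0.52 to 0.74). Calls at these genes went both ways. Early, body peaks were lower at Tasor (−0.65), Pphln1 (−0.82) and Mphosph8 (−0.98), while 3 peaks of Pphln1 were higher. Setdb1 had a peak outside the gene that was higher early (0.94, adjusted p = 0.00742). Other scalings were not run for these genes.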

How the data were processed

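Omni-ATAC-seq uses a transposase that inserts adapters into open chromatin. Starting values were the authors' raw read counts per consensus peak, a deposited table of 15 libraries and 206367 peaks. The submitters' processing notes name MACS2 and mm10. Not given in the sources used here are the aligner, the read shift, the counting tool, the treatment of reads that map to several places and how consensus peaks were made. The deposited peak lists, 1 a library, hold the caller's fold enrichment ratio and −log10 p and q values, and were used only to count how many Zfp peaks they overlap: between 45.0% (early control 3) and 92.2% of the 2287, 851 of them in all 15 lists. A score in the deposited list of consensus peaks was not used.

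Peaks with low counts were removed by filterByExpr (18 peaks, 0 of them at Zfp genes), libraries were scaled by TMM, and 1 edgeR 4.0.16 quasi-likelihood fit over all 5 groups (R 4.3.3) gave 5 comparisons: each Fra2 group against the control of its time, the inhibitor and late control each against early control, and the late minus the early Fra2 effect. Those of early Fra2, the inhibitor and late control share early control, and those of late Fra2 and late control share late control. P-values were adjusted by Benjamini-Hochberg over 206349 peaks and called under 0.05. The edgeR steps were run on simulated counts with known changes and the same spread at every peak. In that simulation no library stood apart other than in depth, and few peaks changed. Its outcome is not given, and no call here rests on it. CPM values are counts per M reads in peaks after TMM, and 3 counts were taken as the floor.

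A peak belonged to the nearest RefSeq protein-coding interval (GRCm38.p6); a gene-end peak had its centre within 1 kb of either end. The named peaks were, per comparison, up to 8 in each direction with the largest change among called peaks of at least 1 CPM whose groups did not overlap (1 a gene), up to 6 a direction called alike in both Fra2 comparisons and with the inhibitor, and the highest gene-end peak of 34 genes of known role; others are said to be chosen after their values were seen. Members, lists and rules were chosen with earlier results of these data known. Alternatives were other scalings (factors from gene-end peaks, cyclic loess), no low-count filter, only the groups compared, a replicate block, DESeq2 1.42.0, each library left out, other gene-end limits, a 10 kb assignment limit, symbols with a letter suffix, and, added after seeing the data, promoter windows in place of gene ends and omission of the chromosome 4 run. Replicate numbers did not pair libraries: the correlations of same-numbered deviations ran from −0.192 to 0.262.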

Additional observations from a re-analysis of the deposited data

Results flagged for a closer look

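The peak 3.82 kb from Zfp469 (chr8:122276222-122276723) differed between the early and late Fra2 effects by the test of the difference itself. Late Fra2 changed it by −0.70 ± 0.18 (adjusted p = 0.00684, edgeR's quasi-likelihood test with Benjamini-Hochberg adjustment), lower than late control in 3 of 3 libraries, and early Fra2 by 0.63 ± 0.22 (adjusted p = 0.0468), higher than early control in 3 of 3. The late minus early difference was −1.33 ± 0.29 (adjusted p = 0.0317). It was called in 13 of 21 alternatives, between −1.50 and −1.16, with a highest adjusted p of 0.139. Late control stood above early control at this peak by 1.62 (means of 8.1 and 2.58 CPM), and the Fra2 means were 4.97 CPM late and 4.06 CPM early. The change between the controls is part of the difference by construction, and its cause was not tested.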

How the results depend on the processing

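Scaling, the early control 3 library and the libraries that share the estimate of the spread moved the counts most. No called change at a named peak turned its sign, but the balance of higher and lower calls turned with factors from gene-end peaks late, with the inhibitor and at gene ends in both Fra2 comparisons, and the median over Zfp peaks moved to 0.09 early and 0.13 late; under cyclic loess the balance turned early and in late control (50 higher), without early control 3 it turned early, and without late control 2 or 3 or late Fra2 2 it turned late, and without inhibitor library 1 the inhibitor gave 1 higher and 0 lower. The cause was not tested unless stated. With factors from gene-end peaks, higher and lower Zfp calls were 310 and 38 early (gene ends 18 and 13, promoter windows 1 and 10) and 261 and 38 late (gene ends 19 and 17, windows 3 and 14); 65 were higher with the inhibitor (gene ends 1 higher and 1 lower) and 62 in late control (1 at gene ends). Cyclic loess gave 218 lower early (gene ends 81, windows 58), 26 lower gene ends and 15 lower windows late, 15 higher and 44 lower with the inhibitor (gene ends 1 and 7), 68 lower in late control (gene ends 30), and 1 higher late minus early difference. Fitting only the groups compared, which leaves fewer libraries, gave 82 higher and 32 lower early (gene ends 7 and windows 5 lower), 255 lower late (gene ends 112, windows 85), 0 and 0 with the inhibitor, 8 and 3 in late control (gene ends 1 lower), and 0 lower differences. DESeq2 gave 7 lower with the inhibitor, 2 of them at gene ends, and 0 higher windows late.

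With a replicate block, 6 peaks were higher with the inhibitor, against 3 without it, early calls were 159 higher and 136 lower and late calls 92 and 117; the block moved no other count of calls by over 1.5 times, and not every library correlated best with its own number. A 500 bp gene-end limit left 1 higher early and 3 late. Promoter windows in place of gene ends gave 0 higher early, 1 higher late, 1 lower with the inhibitor and 2 lower in late control. Without the chromosome 4 run 4 were lower with the inhibitor. The other alternatives, no low-count filter, the 10 kb limit and symbols with a letter suffix, left every count within 1.5 times.

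Leaving out each library in turn gave 103 to 187 higher and 77 to 255 lower early, 39 to 140 and 35 to 250 late, 0 to 24 and 0 to 67 with the inhibitor, 14 to 47 and 6 to 45 in late control, and 0 higher and 0 to 4 lower differences. At gene ends these were 4 to 10 and 18 to 124 early, 3 to 6 and 10 to 111 late, 0 and 0 to 32 with the inhibitor, 0 to 3 and 1 to 15 in late control, and 0 and 0 for the difference; at windows 0 to 1 and 10 to 97 early and 0 to 1 and 6 to 83 late. Omission of early control 3 gave the highest lower counts early, late and with the inhibitor. The lowest early counts (103 and 77) came without early control 2, the lowest late ones without late control 3 (39 higher) and late Fra2 2 (35 lower), and 0 calls with the inhibitor without inhibitor library 3. Over the named peaks and alternatives, 3362 values kept the direction and side of the threshold, 298 lost the call and 32 gained it. Of 81 calls at these peaks, 28 held in each of the 21 alternatives: 14 of 28 early, 9 of 28 late, 0 of 9 with the inhibitor and 5 of 16 in late control. The SEs reflect variation among libraries, which could be technical, and the floors reflect counts only. At 6.75 M reads early control 3 limits what early comparisons can show.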
